A study of Solanum lycopersicum with 12 samples.

Results

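The 150 strongly expressed genes whose RNA level varied least across developing tomato lateral roots are described here as candidate reference genes of root sections. They were chosen by their own values: counts were scaled to counts per 1000000 of the library total (CPM), genes with at least 50 CPM in all 12 libraries were kept, and the 150 with the smallest standard deviation (SD) of log2(CPM + 1) over the 12 libraries were taken. Of 34027 genes in the table, 1898 (5.58%) reached 50 CPM in every library, and the 150 are 7.9% of those. Because every library took part in the choice, the levels and SDs of the 150 genes are given as a description. Fitted changes and counts of called genes from a model of all genes appear below for the 150 in the same sense, and nothing about these genes is tested by them, since small spread was what chose them. Likewise, the label of constancy means constancy relative to the library total.

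The libraries came from seedlings of tomato cultivar M82 carrying the auxin reporter DR5::VENUSx3-NLS, grown on agar with MS salts and sucrose; the labels give no age and no treatment, and all groups share the reporter. Pieces of primary root were cut under a stereoscope by DR5 fluorescence and made into 3′ QuantSeq libraries, which yield about one read site per transcript. The control was a piece of the differentiation zone free of lateral roots, and the other groups held a primordium at stage 1 (a pair of cells with DR5 signal), stage 2 (first periclinal division), stage 3 (passing the endodermis), stage 4 (mid-cortex) or stage 5 (at the epidermis, not emerged). Each of the 6 groups had 2 libraries, and the labels do not say whether the duplicates came from separate plants, so p-values cover the spread between these libraries, which may be technical. In such pieces, fewer cells of a type and less RNA per cell cannot be told apart, and each piece also held the primary root tissue around the primordium.

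A reference gene is one whose transcript is used as the yardstick for others, in quantitative PCR for example, because its level is taken to stay the same across the conditions compared. Many of the genes used in this way encode parts of the machinery that every cell needs, such as the cytoskeleton, protein synthesis and protein turnover. A lateral root adds dividing and later differentiating cells to a piece of mature root, so a yardstick has to hold across tissues of different cell make-up. The files give locus tags only, and no table used here pairs these tags with names, so the genes are called by their tags and no role is given to any of them. For the same reason the classical reference genes and the markers of root tissue were not analysed here.

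Library totals ran from 1948150 counts (stage 5 replicate 2) to 6196286 counts (stage 1 replicate 1). A gene at 50 CPM therefore had between 97.4 and 310 counts in a library, and the smallest single count of any of the 150 genes was 98. The duplicates of every group differed beyond counting error, by a chi-square over all genes with at least 20 counts in the pair, which ran from 6.61 (stage 3) to 13.6 (control) per degree of freedom. Among the 150 genes, the same statistic per gene was between 2.81 (stage 2) and 6.08 (stage 4).

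The 150 genes were mostly in the lower part of the strongly expressed range. Their mean level ran from 54.7 to 6847 CPM with a median of 99.3 CPM, against a median of 175 CPM for all 1898 genes. A mean under 100 CPM was found for 76 of the 150 (50.7%) and for 410 of the 1898 (21.6%). Of the 475 genes in the lowest quartile by mean level, 79 (16.6%) were among the 150, and of the 475 in the highest quartile, 10 (2.11%) were. The median SD of log2(CPM + 1) rose from 0.257 in the lowest quartile of the 1898 genes to 0.692 in the highest.

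The SD of the 150 genes ran from 0.074 to 0.173 with a median of 0.147, and the median of the 1898 was 0.391. In linear terms the coefficient of variation was between 5.1% and 13.1%, and the highest library exceeded the lowest by 1.18-fold to 1.63-fold. The ratio of highest to lowest was under 1.5-fold for 132 of the 150 genes and for 149 of the 1898 (7.85%). Counting error alone would give an SD between 0.0086 and 0.0962 for these genes, by their counts. The observed SD was a median of 2.04 times that value for the 150 genes and 7.08 times for the 1898. It was under 1.5 times the counting SD for 16 genes, all of them among the 150. The counting SD treats reads as separate molecules, and copies made by PCR would not be told from them.

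**Figure D1:**
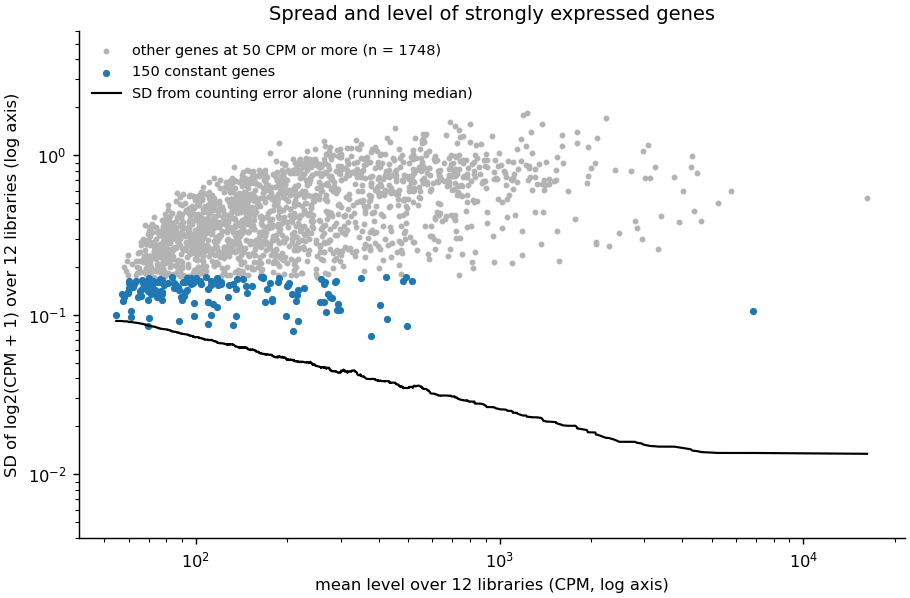
Mean level (x axis, CPM, log scale) against the SD of log2(CPM + 1) over 12 libraries (y axis, log scale) for the 1898 genes with at least 50 CPM in every library. The 150 constant genes (blue) lie at SDs of 0.074 to 0.173, mostly below 200 CPM, at a median of 2.04 times the SD that counting error alone would give (black line, a running median).

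Solyc07g053260 had the smallest SD of all. Its level was 388 and 406 CPM in the control libraries, then 379 and 366 (stage 1), 393 and 397 (stage 2), 370 and 371 (stage 3), 397 and 350 (stage 4) and 344 and 371 (stage 5). On library totals, the control and stage 2 libraries lay above those of stages 1, 3 and 5, and the stage 4 libraries spanned values of both. The highest and lowest libraries on that scale, control replicate 2 and stage 5 replicate 1, differed by 1.18-fold. Its mean was 378 ± 19.3 CPM (SD, n = 12), and its SD of 0.074 on the log2 scale was 2.02 times that of counting error. TMM scaling, which aligns the bulk of the genes rather than the totals, gave an SD of 0.0736 and DESeq2 size factors gave 0.0856. The order of groups changed with TMM scaling. Control replicate 1 then stood at 357 CPM, below all libraries of stages 1, 3 and 5, while control replicate 2 stood at 405 CPM.

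Solyc03g110870 followed with 209 ± 11.8 CPM (SD, n = 12). Its libraries stood at 200 and 216 CPM in the control, then 198 and 201 (stage 1), 210 and 217 (stage 2), 209 and 197 (stage 3), 211 and 198 (stage 4) and 239 and 207 (stage 5). A single library, stage 5 replicate 1, stood above the rest. Its SD rose from 0.0788 to 0.114 after TMM scaling. Solyc01g005620, next in order, had 494 ± 29.5 CPM (SD, n = 12), and some of its counts were not whole, so reads were divided between it and other sequences.

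Solyc07g017900 was the gene whose spread came closest to counting error. Its level was 70.8 and 71.6 CPM in the control, then 73.8 and 69 (stage 1), 70.4 and 62 (stage 2), 69.9 and 71.9 (stage 3), 66.3 and 68 (stage 4) and 63.2 and 76.5 (stage 5). Its lowest and highest libraries were stage 2 replicate 2 and stage 5 replicate 2. On library totals, the control libraries lay above those of stages 2 and 4, and the stage 5 libraries lay on both sides of the control. After TMM scaling, control replicate 1 stood at 65.1 CPM, below both stage 4 libraries (67.7 and 67.2 CPM) and both stage 5 libraries (67 and 79.2 CPM). Its SD was 0.0857 and the counting SD 0.0854, the lowest ratio among the 1898 genes and, like the SD itself, a value tied to the choice of genes.

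The other 11 of the 15 genes with the smallest SD were Solyc03g005740, Solyc03g025630, Solyc04g079270, Solyc01g105710, Solyc04g076060, Solyc06g084520, Solyc03g008010, Solyc06g083790, Solyc04g078510, Solyc05g052510 and Solyc11g072950. The 15 genes had means between 54.7 and 494 CPM and coefficients of variation between 5.1% and 7.09%, and none had more than 1.27-fold between its highest and lowest library. For 8 of the 15 the SD was under 1.5 times the counting SD. No fractional counts were found in 12 of the 15.

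**Figure D2:**
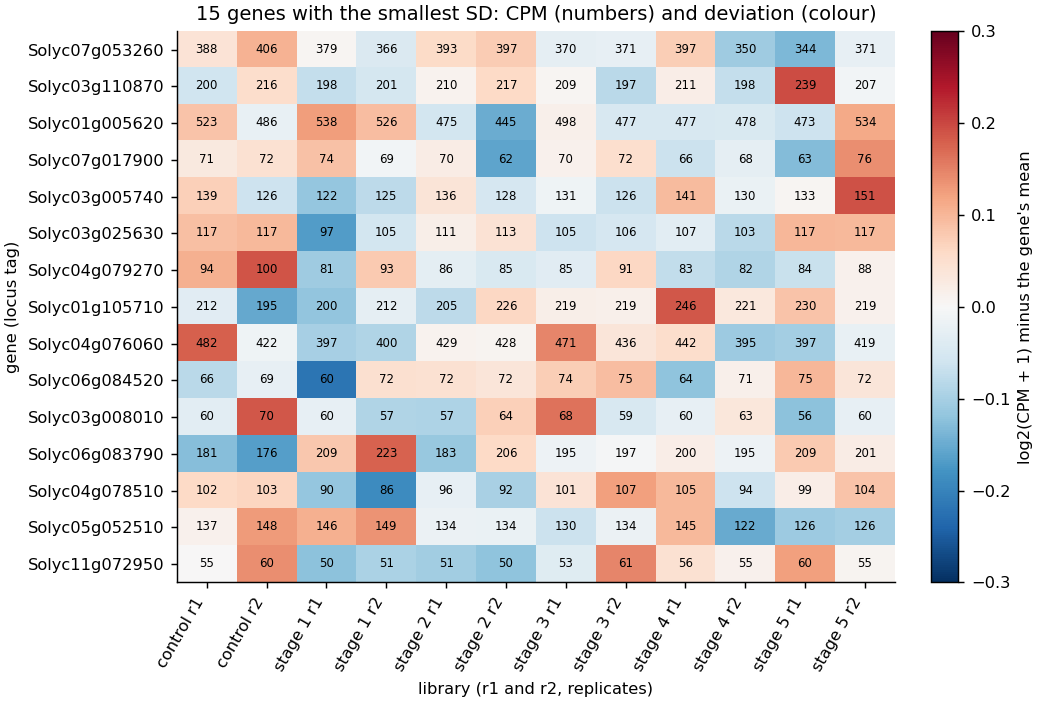
The 15 genes with the smallest SD, in that order from the top, in each of the 12 libraries. Numbers are CPM and colour is log2(CPM + 1) minus the gene's own mean; no gene spans more than 1.27-fold, and Solyc07g053260 spans 1.18-fold.

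The strongest of the 150 genes was Solyc01g111170, at 6847 ± 516 CPM (SD, n = 12), while the next, Solyc03g032130, stood at 515 ± 60.3 CPM. Solyc01g111170 had 6981 and 8011 CPM in the control, then 6033 and 6394 (stage 1), 6695 and 6751 (stage 2), 7067 and 6736 (stage 3), 7540 and 6652 (stage 4) and 6682 and 6620 (stage 5). On library totals, control replicate 2 was its highest library, and the stage 1 libraries were its lowest. After TMM scaling, control replicate 1 (6418 CPM) lay between the stage 1 libraries (6293 and 6428 CPM). It was eighteenth in order of SD (0.106), but with so many counts this was 12.3 times the counting SD, the largest such ratio among the 150. The other genes of the 5 strongest were Solyc01g005620 (494 ± 29.5 CPM), Solyc08g008220 (492 ± 64.3 CPM) and Solyc08g081730 (483 ± 54.1 CPM; SD, n = 12 for each). A mean over 400 CPM was found for 8 of the 150 genes (5.33%) and for 412 of the 1898 (21.7%).

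The limit of the list falls within a continuous run of values. The last 5 genes inside it, Solyc01g088570, Solyc12g044600, Solyc03g121590, Solyc01g095050 and Solyc01g094930, had SDs between 0.172 and 0.173. The first 5 outside, Solyc11g005620, Solyc02g094390, Solyc02g079060, Solyc10g083760 and Solyc03g113020, had SDs between 0.173 and 0.174.

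Genes inside the list still differed in how their spread was divided between groups and duplicates. Solyc01g095050, 1 of the last 5 inside, had 489 and 488 CPM in the control, then 443 and 457 (stage 1), 470 and 451 (stage 2), 401 and 396 (stage 3), 391 and 377 (stage 4) and 367 and 339 (stage 5). Its duplicates differed little, with a pooled SD within duplicates of 0.0422 on the log2 scale, while its 6 group means had an SD of 0.179. With libraries scaled to their totals, the control libraries were the highest and the stage 5 libraries the lowest, without overlap between them. After TMM scaling the control libraries (450 and 488 CPM) still lay above the stage 5 libraries (389 and 351 CPM). Control replicate 1 was then below both stage 1 libraries (462 and 459 CPM), and stage 5 replicate 1 was above stage 4 replicate 2 (373 CPM). On library totals, group means were 489 ± 0.926 CPM in the control and 353 ± 19.8 CPM at stage 5 (SD, n = 2). Against control, the fitted log2 change at stage 5 on TMM-scaled counts was −0.34 ± 0.16 (SE). The fit draws its spread in part from all genes, so this SE is not that of the gene's own duplicates. By edgeR's quasi-likelihood test over all genes, this gene was called neither at stage 5 (adjusted p-value 0.101) nor among the 6 groups (0.285). Over the list, the SD of the group means exceeded the pooled SD within duplicates for 71 of the 150 genes (47.3%) and for 1619 of the 1898 (85.3%). These 2 SDs are not on a par, since means of 2 libraries vary less than single libraries when groups do not differ. The rule used these same values, so nothing is read from the difference between the shares.

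The highest group mean fell in stage 5 for 39 of the 150 genes (26%), in the control for 35 (23.3%), in stage 1 for 26 (17.3%) and in stage 4 for 24 (16%), with 14 genes (9.33%) in stage 3 and 12 (8%) in stage 2. The lowest group mean fell in the control for 45 genes (30%), in stage 1 for 37 (24.7%), in stage 4 for 24 (16%) and in stage 5 for 21 (14%), with 14 genes (9.33%) in stage 2 and 9 (6%) in stage 3. Extremes were thus spread over all groups. Over all 1898 genes, the highest group mean fell in stage 5 for 31.8%, in the control for 26.7%, in stage 1 for 20.3% and in stage 4 for 14%, with 4.79% in stage 2 and 2.37% in stage 3. Their lowest group mean fell in stage 5 for 33.2%, in the control for 32.6%, in stage 1 for 14.1% and in stage 4 for 11%, with 6.38% in stage 2 and 2.79% in stage 3. Stage 5 was thus the lowest group in a smaller share of the 150 than of the 1898, and stage 1 in a larger share. The choice by small spread used these same values, so nothing is read from this difference.

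As a block, the 150 genes took a nearly level share of the counts, from 2.71% in stage 1 replicate 1 to 2.93% in control replicate 2. Solyc01g111170 weighed most in this share, and it stood at 6033 and 8011 CPM in those libraries. Genes chosen for small SD hold a level share by that choice, so nothing is read from it. In 11 libraries the median deviation of the 150 genes from their own means lay between −0.0317 (stage 4 replicate 2) and 0.0181 (stage 4 replicate 1) on the log2 scale. Stage 5 replicate 2, the library with the fewest counts, stood apart at 0.0815, and the median deviation of all 1898 genes in that library was 0.112. In that library 102 of the 150 genes (68%) were above their own mean, and 39 had their highest value there. The deviations of single genes were widest in control replicate 2 (SD 0.18) and narrowest in stage 3 replicate 1 (SD 0.0915).

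The block moved when libraries were scaled by TMM instead of by their totals. Its median deviation was then −0.134 in control replicate 1 and −0.0063 in control replicate 2, and 0.0568 and 0.13 in the stage 5 libraries. By group, the median was −0.0604 in the control and 0.102 at stage 5 after TMM scaling, against −0.000133 and 0.0348 with library totals. The 2 control libraries themselves differed in this respect, since the TMM factor relative to the total was 1.09 for replicate 1 and 1 for replicate 2. The median SD of the 150 genes rose from 0.147 to 0.155 with TMM scaling and to 0.16 with DESeq2 size factors.

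**Figure D3:**
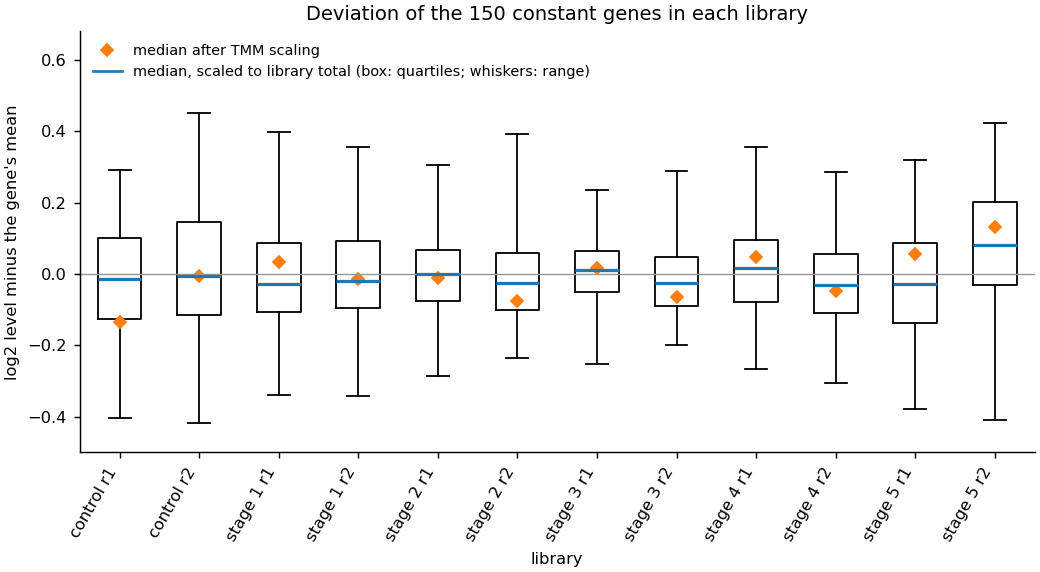
Deviation of the 150 constant genes from their own means (y axis, log2) in each of the 12 libraries (x axis). Boxes show quartiles and whiskers the full range with libraries scaled to their totals, and orange diamonds show the median after TMM scaling, which runs from −0.134 in control replicate 1 to 0.13 in stage 5 replicate 2.

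All genes were tested for differences among the 6 groups with edgeR's quasi-likelihood F test, where 44.4% of the 18357 tested genes were called at an adjusted p-value under 0.05. Among the 1898 genes at 50 CPM or more, 62.5% were called. None of the 150 genes was called by edgeR or by DESeq2, and 0 had an unadjusted p-value under 0.05 in edgeR; their smallest adjusted p-value in edgeR was 0.113. The choice of genes by small spread used these same values, so nothing is read from this count.

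Each stage was also set against the control in the same model, with the control libraries shared by all of these comparisons. At stage 1, where 13.2% of all genes were called, 1 of the 150 was. At stages 2 and 3, with 5.99% and 16.3% of all genes called, none of the 150 was called by edgeR or DESeq2. At stage 4, with 32.9% of all genes called, 2 of the 150 were. At stage 5, with 46.2% of all genes called, 24.4% as higher, 11 of the 150 (7.33%) were called and all 11 were higher. The median fitted log2 change of the 150 genes was 0.0896, 0.0247, 0.0322, 0.0533 and 0.165 for stages 1 to 5. That of all tested genes was 0.143, 0.105, 0.0244, −0.00504 and 0.0215.

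The 11 calls at stage 5 had fitted log2 changes of 0.45 to 0.56, and their number changed with scaling, filter and the libraries used. Fits without a library also had fewer residual degrees of freedom and another set of genes past the filter. Their counts over all genes are given in the closing section. With DESeq2 size factors in edgeR 6 were called, with DESeq2 itself 5, and without a filter on low counts 0. Over all genes, 8555 of 18357 were called with DESeq2 size factors in edgeR, 7846 of 18357 with DESeq2 and 9017 of 25900 without a filter. When the summed counts of the 150 genes were made equal in all libraries, 4 were called, 3 higher and 1 lower. Over all genes, 8458 of 18357 were called in that fit. Solyc01g111170 weighed most in the sum. Without control replicate 1 the number was 0, and it was 12 when control replicate 2 was left out. Leaving out each of the other 10 libraries in turn gave 2 to 6. At stage 1, no gene of the list was called in 9 of the 12 fits that left out a library, with DESeq2 size factors in edgeR, with no filter or with 10 counts required in every library. At stage 4 none was called with no filter, without stage 4 replicate 1 or without stage 4 replicate 2, and without control replicate 1 the 2 calls were 1 higher and 1 lower.

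Solyc12g010860 was among the genes called at stage 5. It stood at 178 and 175 CPM in the control, then 203 and 208 (stage 1), 206 and 198 (stage 2), 212 and 212 (stage 3), 219 and 213 (stage 4) and 222 and 248 (stage 5). All 10 libraries with a primordium were above both control libraries. The fitted log2 change at stage 5, on TMM-scaled counts, was 0.54 ± 0.16 (SE). On library totals, group means were 176 ± 2.09 CPM in the control and 235 ± 18.9 CPM at stage 5 (SD, n = 2).

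Solyc12g010860 was 1 of the 5 genes named for the widest range of TMM-scaled group means, so that their differences are a matter of choice too, and the other 4 follow. Solyc01g088570 had 147 and 135 CPM in the control, then 215 and 186 (stage 1), 166 and 169 (stage 2), 158 and 153 (stage 3), 166 and 151 (stage 4) and 155 and 169 (stage 5). The stage 1 libraries were its highest and the controls its lowest, and it was the single call at stage 1, with a fitted log2 change of 0.61 ± 0.17 (SE). Solyc07g005600, called at stages 4 and 5, had a fitted log2 change of 0.56 ± 0.17 (SE) at stage 4 on TMM-scaled counts. On library totals it stood at 76.3 ± 0.312 CPM in the control and 107 ± 1.95 CPM at stage 4 (SD, n = 2). Solyc05g005190 was the other call at stage 4, with a fitted log2 change of 0.54 ± 0.16 (SE), but its control libraries lay apart at 242 and 192 CPM and its counts were partly fractional. Solyc08g006650 was called at stage 5 with a fitted log2 change of 0.56 ± 0.18 (SE). On library totals it stood at 67.2 ± 7.22 CPM in the control and 90.8 ± 8.1 CPM at stage 5 (SD, n = 2).

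Some properties of the 150 genes were not used by the rule, but they may be tied to level or spread, which it did use. No shares matched for level were computed. Fractional counts, which arise when a read is divided among similar sequences, occurred in 1 or more libraries in 19 of the 150 genes (12.7%), in 566 of the 1898 (29.8%) and in 12.6% of all genes of the table, genes without counts included. Tomato locus tags carry the chromosome number, and the 150 genes lay on all 12 chromosomes. Chromosome 1 held 22 of them (14.7%, against 13.2% of the 1898), chromosome 3 held 20 (13.3% against 9.69%), and chromosomes 9 and 12 held 6 each (4% against 7.38% and 5.95%). None carried a tag beginning with chromosome 0, which stands for sequence not placed on a chromosome, against 30 of the 1898. No pair of the 150 genes occupied neighbouring rows of the table, and no such count was made for the 1898 genes.

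Apart from the 1 CPM added before taking log2, ratios between the 150 genes do not depend on how libraries are scaled. Over the 11175 pairs, the SD of the log2 ratio over the 12 libraries had a median of 0.194 and ran from 0.0526 to 0.326. The median over all pairs of the 1898 genes was 0.595. Small SDs of single genes keep the SDs of their ratios small. These are also the libraries that chose the genes, so nothing is read from this difference. The closest pair was Solyc03g110900 and Solyc10g080700, named after their values were seen. Solyc03g110900 was at 61.5 and 86.7 CPM in the stage 5 libraries and Solyc10g080700 at 66.7 and 95, so both were lower in the first stage 5 library than in the second while their ratio differed less.

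To see how the rule carries over to libraries it did not use, it was applied to the 6 libraries of one replicate number and the list was then measured in the other 6. Both sets hold the same 6 groups, and the labels do not say whether duplicates came from separate plants. How far a list carries over to new plants is therefore not shown. The 150 genes chosen in replicate 1 had a median SD of 0.104 there and 0.206 in replicate 2, where all 2089 genes passing the floor in replicate 1 had a median of 0.407. The 150 chosen in replicate 2 had a median SD of 0.131 there and 0.17 in replicate 1, against 0.438 for 2178 genes. In the libraries not used, 145 (96.7%) and 143 (95.3%) of the chosen genes were below the median SD of their comparison set. The comparison sets were not matched for level. Over all 12 libraries the median SD rose from 0.257 in the lowest quartile of level to 0.692 in the highest. How much of the gap goes with level was not tested. The median gene of each list stood at percentile 13 and percentile 11.6 of that set. Only 47 and 44 of the 150 were again among the 150 smallest SDs of that set, and the floor of 50 CPM was met in all 6 other libraries by 128 and 131. The lists from replicate 1 and from replicate 2 shared 40 genes, all of which are among the 150 chosen on all libraries, while 20 of those 150 were in neither list. A gene with a small SD in both sets tends to have a small SD over all 12 libraries, so nothing is read from this overlap.

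**Figure D4:**
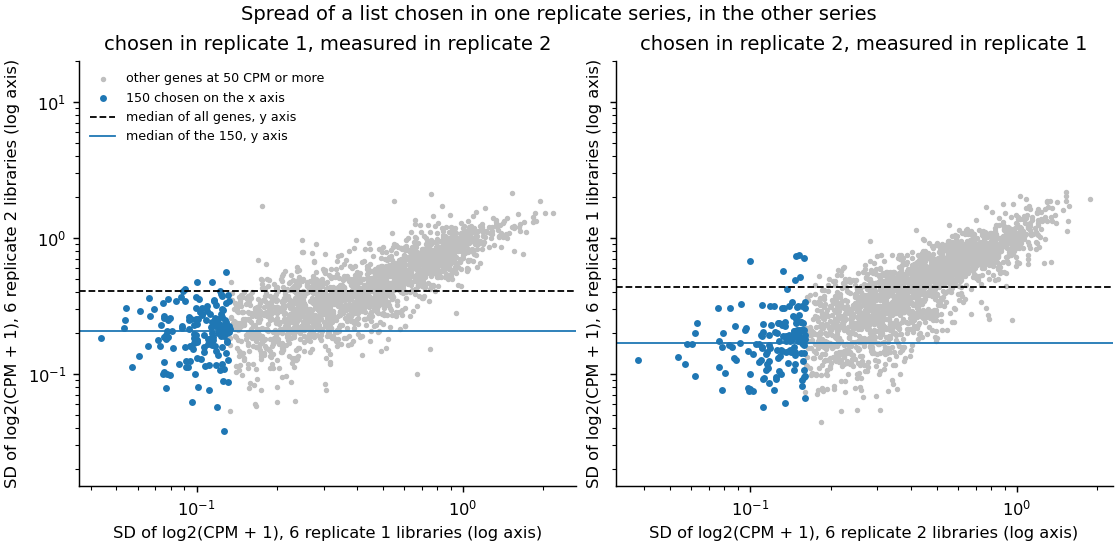
SD of log2(CPM + 1) over 6 libraries of one replicate number (x axis, log scale) against the SD over the other 6 libraries (y axis, log scale) for genes with at least 50 CPM on the x axis. The 150 genes chosen on the x axis (blue) had median SDs of 0.206 and 0.17 on the y axis (blue line), below the medians of 0.407 and 0.438 of all genes plotted (dashed). The genes plotted were not matched for level.

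The make-up of the list was compared over 31 other choices of scaling, floor, measure of spread or libraries. A gene of the list was found again in a median of 26 of the 31 lists, with a range of 8 to 30. The 10 genes found in 30 included Solyc07g053260, Solyc03g110870, Solyc03g005740, Solyc01g105710 and Solyc06g083790 of the 15 with the smallest SD. Leaving out a library in turn kept 105 to 144 of the 150, with the lowest numbers without control replicate 2 (105) and stage 5 replicate 2 (109), and 86 genes were found in all 12 of these lists. TMM scaling kept 117, DESeq2 size factors 120, thinning to the smallest total 116 and a measure built on ratios between genes 126. Of the 150 genes, 82 were in all 4 of these lists, and 1, Solyc02g090570, was in none of the 4 and is named for that reason. The floor moved the list more than these scalings did: with 20 CPM in place of 50 the new list held 83 of the 150 genes, and with 100 CPM it held 63. Under a floor of 100 CPM any gene with a library below that level is left out, whatever its spread.

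**Figure D5:**
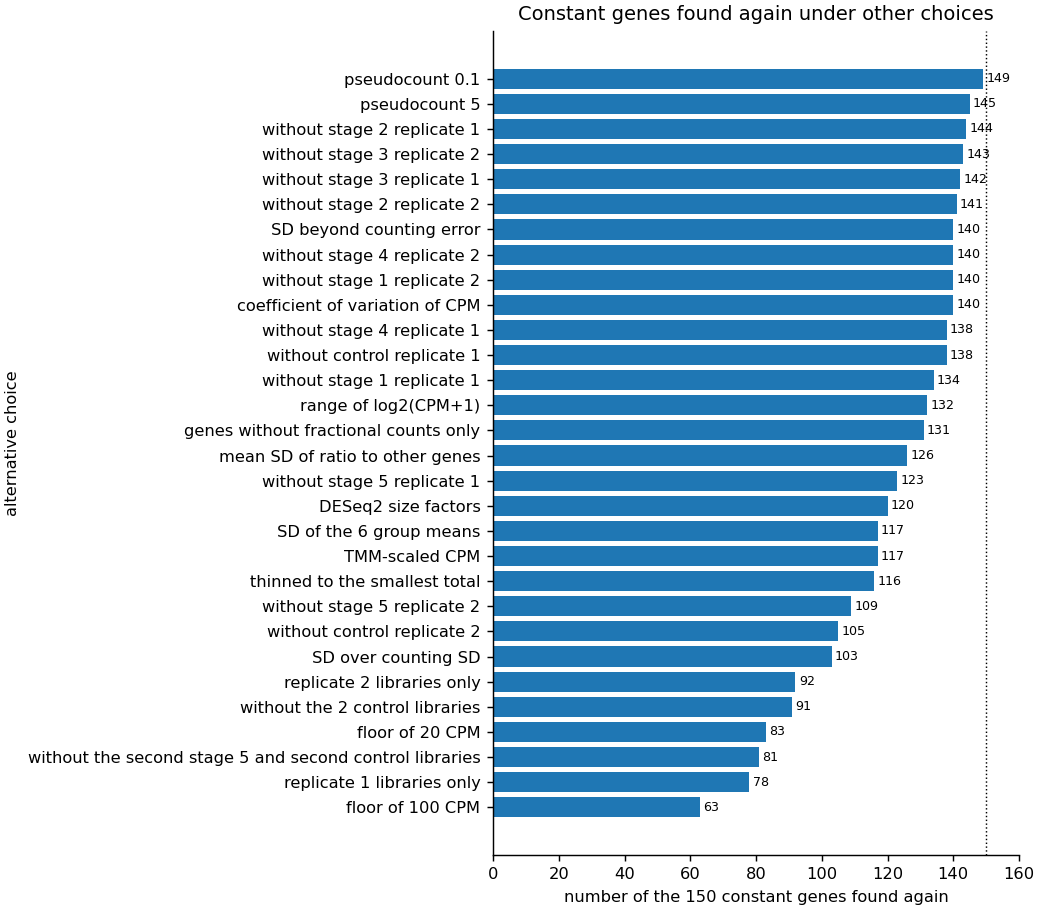
Number of the 150 constant genes found again (x axis, bars starting at 0; dotted line at 150) when the 150 most constant genes were chosen anew under each alternative (y axis). The numbers run from 63 with a floor of 100 CPM to 149 with a pseudocount of 0.1; a list with no floor, which shared 0 genes, is not drawn.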

How the data were processed

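RNA was measured in 12 libraries with a 3′ kit, per the labels' protocols. The authors deposited a table of estimated counts per locus tag, not scaled to a common total; 5.64% of the values are not whole numbers. The submitters' processing notes name Salmon 1.3.0 and DESeq2; genome build, annotation, strand setting and filters are not given in the sources used here. Columns were matched to samples by name and grouped by the stage in the titles.

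The constant genes were chosen on the deposited estimated counts in CPM. For tests, counts were rounded to whole numbers, genes kept with filterByExpr (18357), scaled by TMM and fitted with 1 model of 6 groups in edgeR's quasi-likelihood test (edgeR 4.0.16, R 4.3.3; 6 residual degrees of freedom), with Benjamini-Hochberg adjustment and a threshold of 0.05. DESeq2 1.42.0 was an alternative. Standard errors are the log2 change divided by the square root of F, a statistic whose spread is estimated in part over all genes. The scripts were tested on simulated counts.

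The members and lists were chosen with earlier results of these data known. Genes named are the 15 members of smallest SD, the 5 strongest, the 5 of largest SD, the 5 with the widest range of TMM-scaled group means and the 5 just outside; genes outside this rule are said to be so. The counting SD is the square root of the mean of 1/count over libraries, on the log2 scale. Planned classes by product name, promoter letters and the classical reference genes were not analysed here, because no table used here pairs the tags with names; no sequence is shown for the same reason.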

Additional observations from a re-analysis of the deposited data

Results flagged for a closer look

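For 3 of the 28 named genes of the list, the contrast with the control pointed in opposite directions at different stages in every library. The difference between the stages was not tested, because the genes were chosen on these values. Some of the 28 were named for a large SD or a wide range of group means. No such count was made for any other genes, so nothing is read from this number. Solyc03g121590 was above both controls at stage 1 (log2 change of mean CPM 0.25) and below both at stage 4 (−0.2), a difference of 0.448. Solyc01g005620 was above at stage 1 (0.08) and below at stage 2 (−0.13), a difference of 0.209. Solyc03g025630 was below at stage 1 (−0.2) and above at stage 5 by only 0.005, a difference of 0.21.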

How the results depend on the processing

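The make-up of the list changed with several choices. The median SD of the 150 genes of the main list, whose spread was minimised on these same libraries, was 0.136 to 0.161 under other scalings, thinning, without the controls and in either replicate alone except replicate 1 (0.13), and 0.137 to 0.152 without each library in turn. The number of the 150 found again was 83 with a floor of 20 CPM, 63 with a floor of 100 CPM, 91 without the 2 control libraries, 78 in replicate 1 only, 92 in replicate 2 only, 81 without the second stage 5 and second control libraries (chosen after seeing the data, as were the ratio measure and the measures built on counting error), and 105 to 144 without each library in turn. With no floor it was 0, since genes with almost no counts then have the smallest SD. The genes called among the 6 groups were 8151, and 6747 to 8565 without each library. Against control without each library, the called genes were 845 to 2915 at stage 1 (main 2432), 358 to 1856 at stage 2 (main 1099), 1489 to 3414 at stage 3 (main 2986), 3289 to 6592 at stage 4 (main 6040) and 5923 to 8248 at stage 5 (main 8490). Stage 1 gave 1544 with 10 counts required in every library, and stage 2 gave 2298 with no filter; the cause was not tested. The replicate number was not taken to pair libraries, since replicate differences correlated between groups at 0.0458 on average (range −0.0831 to 0.212 over 15 pairs of groups); with a replicate block 8324 genes were called among the 6 groups, 8570 at stage 5, and 10 of the 150 at stage 5. Depth limits the list at its lower end: at 50 CPM the shallowest library had 97.4 counts. Alternatives on classical reference genes were not run.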
